A study of Mus musculus with 120 samples.

Results

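The *Ugt1a* locus encodes the UDP-glucuronosyltransferases of family 1, and 9 of its genes (*Ugt1a1*, *Ugt1a2*, *Ugt1a5*, *Ugt1a6a*, *Ugt1a6b*, *Ugt1a7c*, *Ugt1a8*, *Ugt1a9* and *Ugt1a10*) are described here across the biopsies of an implanted immunological niche (IN). The genes were taken by symbol, and all 9 were listed among the 55487 genes shared by both count tables. The group was chosen by its levels in NOD and NOR mice, that is, selected on the strain difference in these counts, so the strain comparison of the 9 genes is given as a description without a test, while ages, times and progression were tested. The IN is a porous polycaprolactone scaffold placed under the skin of female mice from 4 weeks of age, which fills with host cells and is then removed for sequencing. It was studied in NOR/LtJ mice, a diabetes-resistant relative of the NOD strain, and in NOD/ShiLtJ mice, which were divided into progressors, that became hyperglycemic, and nonprogressors, that did not.

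The 120 samples comprised 23 from 5 NOR mice, 39 from nonprogressors and 58 from 10 progressors. NOR samples were taken every 4 weeks from 6 to 22 weeks of age, with 4 or 5 mice at each age, all in sequencing batch 1. Nonprogressors were sampled at the same ages in batch 1 (4 mice at each age) and at 6 and 14 weeks in batch 2 (7 and 6 mice). Another 6 nonprogressor samples are labelled by days after implantation only and entered no comparison. Progressors were sampled at 6 weeks of age (5 mice in each batch), at 7 weeks before onset (8 mice, batch 2), and at 5, 3 and 1 weeks before onset and at onset (5 mice in each batch). The samples of progressors 1 to 4 at 7 weeks before onset were in batch 2, and all their other samples were in batch 1. The labels name no drug or transgene. Each numbered mouse except nonprogressor 11 gave several samples, since a removed IN was replaced by a new one in the same place. Total counts per sample ranged from 4722396 to 56185434 in batch 1 and from 29029239 to 43880986 in batch 2. A ribosomal RNA gene took 85.7% of all counts in the 18-week library of NOR mouse 5, which left 23 counts on the 9 genes together. The 4 nonprogressor libraries of 22 weeks held 16.6%, 22.95%, 29.5% and 38.3% of their counts on 7SL RNA genes, against 2.47% to 12.6% in the 16 batch 1 nonprogressor libraries of 6 to 18 weeks.

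UDP-glucuronosyltransferases sit in the membrane of the endoplasmic reticulum and join glucuronic acid from UDP-glucuronic acid to small lipophilic molecules, which makes them soluble and ready for export. UGT1A1 conjugates bilirubin, the end product of heme breakdown, and UGT1A6 enzymes conjugate simple phenols. The family is best known from liver, intestine and kidney, and the aryl hydrocarbon receptor and NRF2 are among its known inducers. Each *Ugt1a* gene has its own promoter and its own first exon, which encodes the substrate-binding part of the protein. All members share the same last exons, which encode the part that binds UDP-glucuronic acid.

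The members occupy chr1:88055388-88220002 (GRCm38, plus strand, 164.615 kb). In GENCODE M21 the first exons are arrayed in the order *Ugt1a10*, *Ugt1a9*, *Ugt1a8*, *Ugt1a7c*, *Ugt1a6b*, *Ugt1a6a*, *Ugt1a5*, *Ugt1a2* and *Ugt1a1*, from 158707 bases to 2172 bases before the common exon 2. The main transcript of each gene has 5 exons, and the first exon made up 28.3% of its length in *Ugt1a7c* and 40.1% to 42.1% in the other 8. *Ugt1a7c* was also annotated 1005 bases further at its 3′ end than the shortest members. A read that lies wholly in the sequence common to all members carries no letter that tells them apart, while the first exons and, for *Ugt1a7c*, the longer 3′ end hold sequence that differs. RSEM, named in the submitters' processing notes, divides such shared reads by estimation, and how the division affected each member was not tested. The coding part of the *Ugt1a1* first exon was at most 60.6% identical to that of any other member (*Ugt1a5*). *Ugt1a2* and *Ugt1a5* were 82.0% identical, *Ugt1a7c* and *Ugt1a8* 84.8%, *Ugt1a9* and *Ugt1a10* 91.6%, and *Ugt1a6a* and *Ugt1a6b* 97.0%. Of all 100-base windows in the *Ugt1a6a* coding first exon, 25.0% occur unchanged in *Ugt1a6b*, while none of those of *Ugt1a7c* occur in another member. The stretch in which *Ugt1a6a* (chr1:88138714-88138833) and *Ugt1a6b* (chr1:88107182-88107301) differ most is shown because the ratio of this pair differed between the strains. It lies within the coding first exon, on the plus strand of GRCm38, and capitals mark the 15 bases at which they differ, of 26 differences among 858 coding bases. The start of the coding first exon of *Ugt1a7c* (chr1:88095121-88095240), the member with the most counts, is shown for comparison.
Ugt1a6a: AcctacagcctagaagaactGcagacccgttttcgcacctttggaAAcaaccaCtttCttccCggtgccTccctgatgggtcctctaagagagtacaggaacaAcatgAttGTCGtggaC
Ugt1a6b: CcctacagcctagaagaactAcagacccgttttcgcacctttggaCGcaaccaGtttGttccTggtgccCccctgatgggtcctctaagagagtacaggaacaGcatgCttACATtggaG
Ugt1a7c: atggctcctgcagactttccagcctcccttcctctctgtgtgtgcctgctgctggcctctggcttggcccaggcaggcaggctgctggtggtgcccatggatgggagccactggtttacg

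Promoter windows from RefSeq (GRCm38.p6, 250 bases before to 50 bases after the start) were listed for 8 of the 9 genes. The *Ugt1a6a* window (chr1:88134559-88134858) lies at another start of the gene, upstream of the first exon described above (from chr1:88138378). The start of that exon was therefore not searched. GCGTG, the core of the binding element of the aryl hydrocarbon receptor, was found on either strand in 2 of the 8 windows (*Ugt1a8* and *Ugt1a5*), against 32.4% of all 32851 promoter windows. TGACNNNGC, the antioxidant response element read by NRF2, was found on either strand in 0 of the 8, against 12.4% of all windows.

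In the IN, *Ugt1a7c*, *Ugt1a6a* and *Ugt1a6b* gave most of the signal of the locus. Levels are given as CPM, the count relative to the library's total, scaled by the TMM method, which corrects for differences in library composition, and for the strains the batch 1 samples of each mouse were summed. In the 9 NOD mice the level per kilobase of transcript was 19.7 ± 1.83 CPM (SD) for *Ugt1a7c*, 9.93 ± 0.625 for *Ugt1a6a*, 6.13 ± 0.393 for *Ugt1a6b*, 2.97 ± 0.331 for *Ugt1a5*, 1.81 ± 0.266 for *Ugt1a1* and 1.53 ± 0.208 for *Ugt1a2*. *Ugt1a1* and *Ugt1a2* lay within their combined spread, and the other neighbours in this order did not. *Ugt1a8*, *Ugt1a9* and *Ugt1a10* were each under 0.07 CPM per kilobase, and had no count in 59, 45 and 78 of the 120 samples. Macrophage and fibroblast markers were abundant in the IN (*Csf1r*, median 498 CPM; *Col1a1*, median 10803 CPM), whereas the defining markers of hepatocytes and intestinal epithelium, where the family is best known, were near 0 (*Alb*, median 0.0499 CPM; *Cdx2*, no count in 116 of 120 samples).

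The strain comparison asked how the IN of mice at risk differed from that of the resistant strain, and was made within batch 1 over 5 NOR mice, 5 progressors and 4 nonprogressors. The 6 members with a level above 0.8 CPM in every mouse were lower in each of the 5 NOR mice than in each of the 9 NOD mice. Of the 23387 genes tested, 2.1% had every NOR mouse below every NOD mouse and 8.98% passed an adjusted p of 0.05 (3.87% higher and 5.11% lower in NOD). Since the members were picked for this difference, nothing is read from their number. The 9 genes together had 60.2 ± 3.09 CPM (SD) in the NOR mice and 114 ± 8.71 CPM in the NOD mice, a difference of 0.93 ± 0.06 (SE) on the log2 scale, or 1.90-fold.

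*Ugt1a6b*, a phenol-conjugating isoform, differed most among the 6. Its level was 4.83, 3.76, 4.26, 4.35 and 4.51 CPM in NOR mice 1 to 5, and 12.02, 13.8 and 14.99 CPM (lowest, median, highest) in NOD mice. NOD exceeded NOR by 1.67 ± 0.06 (SE, log2), or 3.18-fold. Its near-identical neighbour *Ugt1a6a* had 16.2, 17.1, 15.3, 13.8 and 14.9 CPM in the NOR mice and 20.6, 22.2 and 24.9 CPM in NOD. This was the smallest difference of the 6, at 0.54 ± 0.06 (log2) or 1.45-fold. For *Ugt1a6a* and *Ugt1a6b* together, whose sum does not depend on how shared reads were divided between the pair, the difference was 0.87 ± 0.05 (log2) or 1.83-fold.

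*Ugt1a7c* had 33.5, 37.1, 38.6, 36.0 and 31.7 CPM in the NOR mice and 53.5, 65.3 and 69.5 CPM in NOD, a difference of 0.85 ± 0.07 (log2) or 1.80-fold. *Ugt1a1*, the bilirubin-conjugating isoform, had 1.23, 1.15, 1.47, 1.51 and 1.39 CPM in NOR and 3.16, 4.05 and 4.90 CPM in NOD, a difference of 1.58 ± 0.12 (log2) or 2.99-fold. *Ugt1a1*, *Ugt1a5* and *Ugt1a2*, whose first exons lie nearest the common exons, stood further apart in fold than *Ugt1a7c* and *Ugt1a6a*. *Ugt1a6b*, farther from the common exons than *Ugt1a6a*, stood furthest apart of the 6. Whether the differences relate to this distance was not tested. *Ugt1a5* had 2.68, 2.54, 2.28, 2.44 and 2.097 CPM in NOR and 5.27, 6.65 and 7.43 CPM in NOD, 1.44 ± 0.09 higher in NOD on the log2 scale. *Ugt1a2* had 1.24, 0.886, 1.42, 1.37 and 0.871 CPM in NOR and 2.82, 3.21 and 4.17 CPM in NOD, 1.54 ± 0.14 higher in NOD. None of the 6 members overlapped between the strains. *Ugt1a8* (0 to 0.0467 CPM in NOR, 0.0344 to 0.280 CPM in NOD), *Ugt1a9* (0 to 0.0818 and 0.0176 to 0.256 CPM) and *Ugt1a10* (0 to 0.0857 and 0 to 0.138 CPM) overlapped, at levels of a few counts per library.

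**Figure D1:**
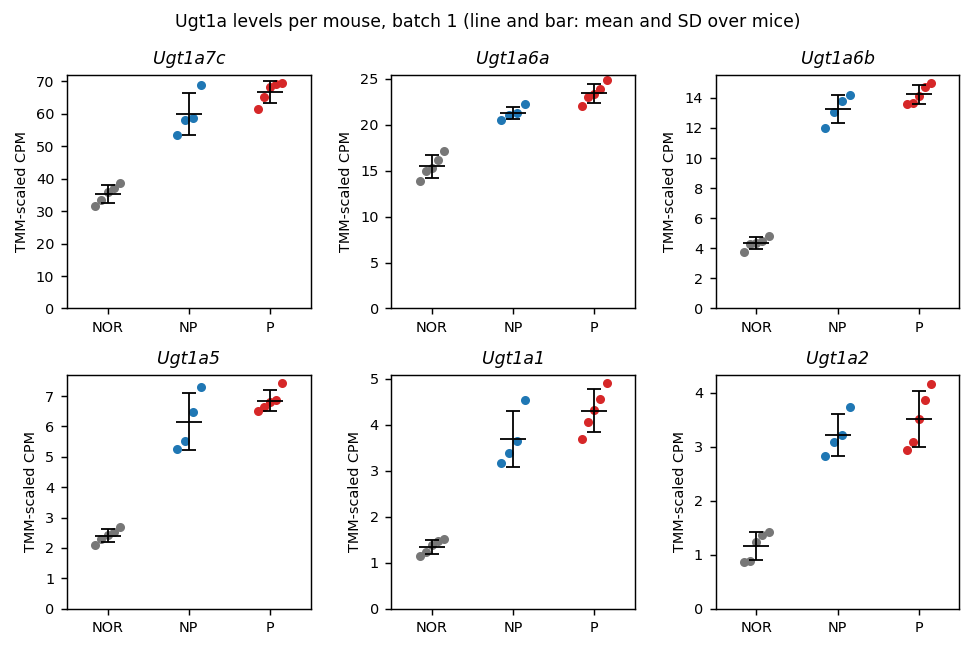
Level of 6 *Ugt1a* genes (TMM-scaled CPM, linear axis from 0) in each mouse of batch 1, with samples summed per mouse, for 5 NOR mice, 4 NOD nonprogressors (NP) and 5 NOD progressors (P); the line and bar are the mean and SD. Every NOR mouse lies below every NOD mouse in all 6 panels, by the widest relative margin for *Ugt1a6b* (3.76 to 4.83 against 12.02 to 14.99 CPM).

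The strains also differed in how the signal was divided among isoforms, measured by counts. *Ugt1a6b* held 7.24 ± 0.904% of the counts of the locus in NOR and 12.1 ± 0.658% in NOD (SD), and *Ugt1a6a* held 25.7 ± 1.92% and 19.7 ± 1.16%. Neither range overlapped between the strains. The ratio of *Ugt1a6b* to *Ugt1a6a* was 0.220 to 0.314 in NOR mice and 0.564 to 0.688 in NOD mice. *Ugt1a7c* held 58.7 ± 2.04% in NOR and 55.7 ± 1.17% in NOD, with overlapping ranges. These shares are estimates of the counter, since reads that fit several members are divided between them.

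**Figure D2:**
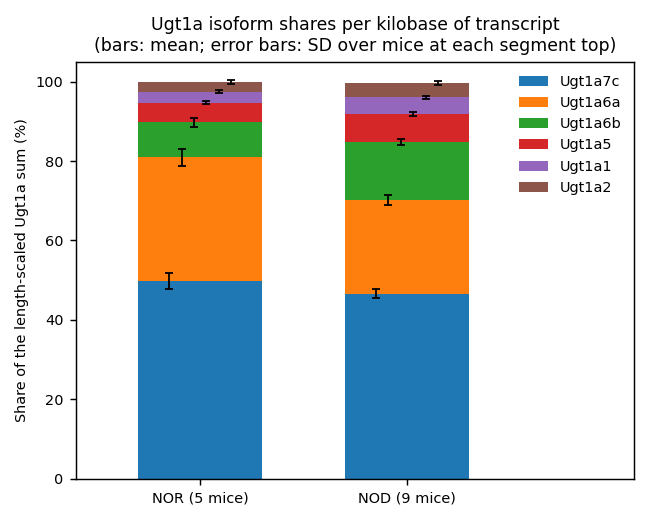
Mean share (%) of 6 isoforms in the summed *Ugt1a* level per kilobase of transcript, in 5 NOR and 9 NOD mice of batch 1; error bars are the SD over mice at the top of each segment. Per kilobase, *Ugt1a6a* takes 31.1% in NOR and 23.6% in NOD, and *Ugt1a6b* 8.81% and 14.5%.

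The sum of the 9 genes was higher in NOD at each age, while *Ugt1a6a* was not at 22 weeks. In nonprogressors and NOR mice of the same age and batch, every NOD library lay above every NOR library for the sum of the 9 genes at 5 of 5 ages. The sum was 58.3 ± 4.17 CPM (SD, n = 4) in NOR and 105.5 ± 15.4 CPM (n = 4) in nonprogressors at 6 weeks, and 62.6 ± 10.4 (n = 5) and 100 ± 20.6 CPM (n = 4) at 22 weeks. At 18 weeks the sum in nonprogressors was 2.32 times that in NOR, and 1.96 times without the library of NOR mouse 5. *Ugt1a1*, *Ugt1a2* and *Ugt1a7c* were apart in this way at 5 of 5 ages, *Ugt1a5* and *Ugt1a6b* at 4, and *Ugt1a6a* at 3. The share of all genes apart in this way at each age was not counted. Since the members were picked for the strain difference, nothing is read from these numbers of ages. At 22 weeks *Ugt1a6a* was 18.6, 27.8, 17.2, 10.9 and 19.4 CPM in NOR mice 1 to 5 and 17.4, 15.8, 13.2 and 17.6 CPM in nonprogressors 1 to 4, so the strains overlapped and the mean was lower in NOD (15.99 against 18.8 CPM, a ratio of 0.850). These 4 nonprogressor libraries are the ones described above, with 16.6% to 38.3% of their counts on a single kind of RNA. The part of that composition in the overlap was not tested.

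Whether the age pattern differed between the strains was tested as an interaction in batch 1 (20647 genes, 1.43% called). The nonprogressor libraries of the oldest age, with the composition given above, entered this test. By edgeR, 0 of the 6 members tested passed an adjusted p of 0.05, and 1 had an unadjusted p under 0.05 (*Ugt1a6a*, p = 0.0241 in the fit across all genes, adjusted p = 0.241). DESeq2 called this gene (adjusted p = 0.0450). Over all alternatives its adjusted p ranged from 0.0450 to 0.567.

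Marker genes of other cell types were compared between the strains in the same mice. Of 5 macrophage markers 1 was called, *Csf1r*, which was lower in NOD (0.26 ± 0.06 lower on the log2 scale, adjusted p = 0.00923), and the summed macrophage level per sample ranged from 3206 to 8734 CPM in NOR and from 3246 to 7982 CPM in batch 1 NOD. By edgeR 0 of 4 fibroblast markers (1 at an unadjusted p under 0.05), 0 of 4 adipocyte markers (0) and 0 of 3 mammary epithelium markers (0) were called. Of 6 epidermis and 5 hair follicle markers 0 were called by edgeR, but 6 and 5 had an unadjusted p under 0.05. The epidermis sum was 0.286 to 13.1 CPM in NOR samples and 0.576 to 550 CPM in batch 1 NOD, and the hair follicle sum was 0.967 to 30.3 CPM and 0.732 to 4906 CPM. The part of these cells in the strain values of the members was not tested. The summed adipocyte level was 2.22 to 394 CPM in NOR and 1.12 to 594 CPM in batch 1 NOD. The hepatocyte sum was at most 2.11 CPM in NOR and 2.19 CPM in batch 1 NOD. In bulk samples, fewer cells of a type and less RNA per cell cannot be told apart.

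The genes of the surrounding pathway did not share the members' direction in general. Of 61 pathway genes, 44 could be tested, of which 2 were higher and 6 lower in NOD, beside 3.87% and 5.11% of all genes. Their median difference was −0.07 (log2) beside −0.0016 over all genes. Since the members were picked for their strain difference, the contrast with them is a description only. Of 5 genes of UDP-glucuronic acid supply, *Ugp2*, which makes UDP-glucose, was higher in NOD (0.38 ± 0.10, adjusted p = 0.0250), as was *Slc35b1*, a nucleotide exchanger of the endoplasmic reticulum (0.14 ± 0.04, adjusted p = 0.0259). Of 11 tested targets of the aryl hydrocarbon receptor and NRF2, 2 were called, both lower in NOD. These were *Cyp1b1*, a cytochrome P450 induced by the aryl hydrocarbon receptor (90.2 CPM in NOR and 57.5 in NOD, log2 difference −0.65 ± 0.10, adjusted p = 0.000632), and *Srxn1*, an NRF2 target that reduces oxidised peroxiredoxins (108 and 74.5 CPM, −0.54 ± 0.07, adjusted p = 6.18e-05). Among 11 regulators only *Rxra* was called (−0.14 ± 0.04, adjusted p = 0.0390), and the receptor gene *Ahr* was at 19.3 CPM in NOR and 19.6 CPM in NOD. Of 8 genes of heme and bilirubin handling, the conjugate exporter *Abcc3* (−0.29 ± 0.08, adjusted p = 0.0271) and the anion importer *Slco2b1* (−0.66 ± 0.17, adjusted p = 0.0217) were lower in NOD. The sulfotransferase gene *Sult1a1* was lower too (−0.53 ± 0.13, adjusted p = 0.0201), as the 1 called of 7 tested conjugating enzymes of other families. Of 13 UGT genes outside the locus only 2 had enough counts to be tested, and by edgeR 0 were called, with 0 at an unadjusted p under 0.05.

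Around the locus, 37 other genes lie within 500 kb, 10 of them inside it. Of the 24 that could be tested, 7 were called higher and 10 lower in NOD, beside 3.87% and 5.11% of all genes tested. The 4 with the largest difference were *Glrp1* (0.0930 to 0.267 CPM in NOR and 0 to 0.0299 in NOD, −3.84 ± 0.45 on the log2 scale) and 3 pseudogenes inside the locus. Of these, *Gm15371* was lower in NOD (0.659 to 0.853 CPM in NOR and 0.0955 to 0.193 CPM in NOD, −2.51 ± 0.16), while *Gm15368* (1.19 ± 0.12) and *Gm15376* (1.15 ± 0.13) were higher, as the members were. These pseudogenes lie within the span of the members, and how reads that fit both were divided was not tested, so they may not be independent measurements. Of the 17 tested neighbours outside the locus, 1 was higher in NOD, *Arl4c*, named after its values were seen (71.1 CPM in NOR and 149 CPM in NOD), and 9 were lower.

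**Figure D3:**
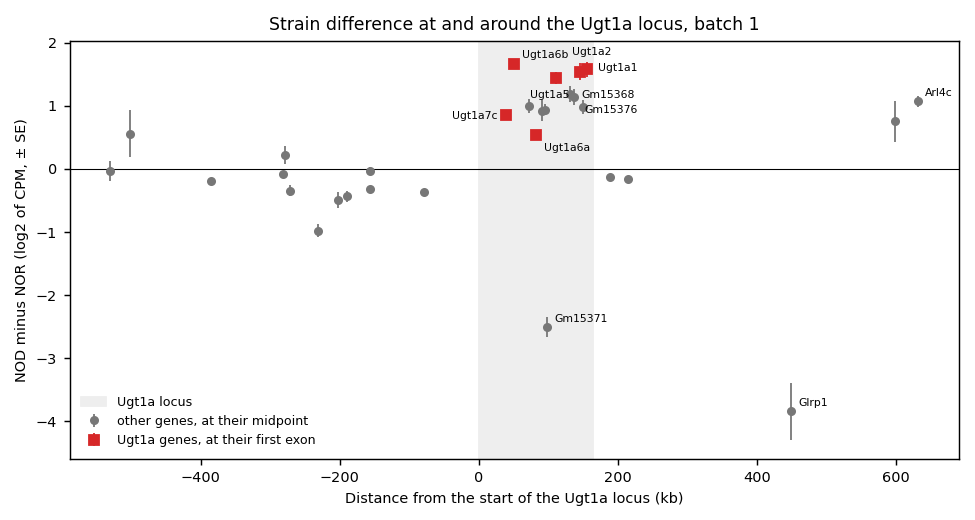
Difference between NOD and NOR (log2 of CPM, ± SE, batch 1, 9 and 5 mice) for 6 *Ugt1a* genes, drawn at their first exons, and for 24 other genes near them, drawn at their midpoints, against the distance from the start of the locus (kb, grey band). The 6 *Ugt1a* genes drawn lie above 0, the genes nearest the band on each side lie below 0, and *Gm15371* inside it lies at −2.51.

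Within NOR mice, no member changed with age in the tests made. Of 19628 genes, 8.24% were called over the 5 ages by edgeR, and 0 of the 6 members tested passed (adjusted p from 0.529 to 0.887), with 0 at an unadjusted p under 0.05 and 0 by DESeq2. The mean sum of the 9 genes was 58.3 CPM at 6 weeks, 66.1 at 10, 62.2 at 14, 52.8 at 18 (62.7 without mouse 5) and 62.6 at 22 weeks. The mean of later ages against 6 weeks was 0.12 ± 0.14 (SE, log2) for *Ugt1a7c* and 0.0032 ± 0.33 for *Ugt1a2*.

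Within nonprogressors, with batch as a term, 34.7% of 21138 genes changed with age, and 3 of 8 members tested were among them. *Ugt1a6a* passed with an adjusted p of 0.0033, *Ugt1a6b* with 0.0135 and *Ugt1a8* with 0.0331 (0.219 with the mouse as a block, 0.128 without mouse 2). *Ugt1a8* passed the count filter only with samples after 6 weeks, so its call is not read as a result. In batch 1, *Ugt1a6a* was 25.8, 21.9, 29.3 and 20.6 CPM in nonprogressors 1 to 4 at 6 weeks, 24.4 ± 3.93 CPM (mean, SD), and 16.0 ± 2.06 CPM at 22 weeks. All 4 libraries of 22 weeks lay below all 4 of 6 weeks, and the share of all genes separated in this way was not counted. *Ugt1a6a* fell between 6 and 22 weeks (log2 change −0.54 ± 0.13, adjusted p = 0.00265; 13.7% of genes called lower), and *Ugt1a6b* differed by −0.45 ± 0.18 (adjusted p = 0.0699). *Ugt1a7c*, by contrast, had a difference of 0.14 ± 0.15 in these samples (adjusted p = 0.517). Against 6 weeks, *Ugt1a7c* differed by 0.33 ± 0.15 at 10 weeks (adjusted p = 0.200) and 0.11 ± 0.10 at 14 weeks (0.411). At 18 weeks it differed by 0.40 ± 0.15 (adjusted p = 0.136), and none of these was called. Without the 22-week libraries, whose high 7SL share is given above, 0 members were called in batch 1, with *Ugt1a6a* at an adjusted p of 0.323 and *Ugt1a6b* at 0.296. The macrophage marker sum of the 22-week libraries was 3414 to 4147 CPM and that of the other batch 1 nonprogressor libraries 3508 to 5719 CPM. Over the ages in nonprogressors, 4 of 4 fibroblast, 4 of 4 mammary epithelium, 3 of 4 adipocyte, 2 of 5 epidermis, 2 of 5 macrophage and 2 of 2 hair follicle markers tested were called. In the mean of later ages against 6 weeks, 4 of 4 fibroblast markers (median log2 difference −0.77) and 4 of 5 epidermis markers fell. In the same contrast 1 of 2 hair follicle, 1 of 4 mammary epithelium and 1 of 1 hepatocyte markers tested rose. The share of all genes called in it is not given. The fibroblast sum was 10003 to 29765 CPM in the 22-week libraries and 10327 to 43690 CPM in the others. The part of these values in the result was not tested. Of 8 members tested against 6 weeks by edgeR, 0 were called at 10 weeks (2 at an unadjusted p under 0.05; 4.8% of genes called) and 0 at 18 weeks (1; 2.09% of genes called). These comparisons share the 6-week samples.

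Within progressors, with batch as a term, 35.6% of 21279 genes changed over the 6 times. Of the 8 members tested 4 were called: *Ugt1a7c* (adjusted p = 0.00265), *Ugt1a2* (0.00544), *Ugt1a5* (0.0275) and *Ugt1a1* (0.0470). *Ugt1a6a* (0.0910), *Ugt1a6b* (0.152), *Ugt1a9* (0.0648) and *Ugt1a8* (0.217) were not. Each of the 4 was higher after 6 weeks of age. For the mean of the later times against 6 weeks (36.5% of genes called, 18% higher and 18.5% lower), *Ugt1a2* rose by 0.55 ± 0.11 (SE, log2; adjusted p = 0.000132), *Ugt1a1* by 0.40 ± 0.11, *Ugt1a7c* by 0.37 ± 0.08 and *Ugt1a5* by 0.32 ± 0.09. *Ugt1a6a* differed by −0.12 ± 0.07 and *Ugt1a6b* by 0.09 ± 0.07, and neither was called. Time by time, members called higher than at 6 weeks numbered 2 at 7 weeks before onset (5.91% of all genes called higher), 5 at 5 weeks (12.9%), 5 at 3 weeks (12.5%), 2 at 1 week (12.3%) and 4 at onset (19.6%). At 5, 3 and 1 weeks these include *Ugt1a9*, which passed the count filter only with samples after 6 weeks of age. *Ugt1a6a* was called lower at 1 week before onset (log2 change −0.23 ± 0.09, adjusted p = 0.0483; 14% of genes called lower) and at onset (−0.23 ± 0.09, adjusted p = 0.0406; 19.9%). These contrasts share the 6-week samples. At 7 weeks before onset all samples are in batch 2, while progressors 1 to 4 have their 6-week samples in batch 1. The part of the batch in that contrast was not tested. No difference among the times after 6 weeks was detected: without the 6-week samples 0 members were called (edgeR, adjusted p of the 4 genes from 0.412 to 0.971).

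*Ugt1a7c* in batch 1 was 60.1, 57.1, 51.1, 56.8 and 39.9 CPM in progressors 1 to 5 at 6 weeks and 72.6, 99.1, 84.7, 96.6 and 84.5 CPM at 5 weeks before onset, so all 5 were higher at the later time. At onset in batch 1 it was 71.1, 52.3, 60.3, 70.5 and 62.5 CPM, which overlapped the values at 6 weeks. In batch 2 it was 55.0, 84.0, 57.2, 65.3 and 65.0 CPM at 6 weeks and 104.9, 63.2, 90.1, 92.3 and 105.4 CPM at onset. Thus 4 of 5 mice of batch 2 were above every batch 2 value at 6 weeks. How many of all genes were separated to this degree was not counted. The mean of a mouse's later samples exceeded its 6-week sample in 5 of 5 mice of batch 1 and 4 of 5 of batch 2. Within single batches the test over times gave an adjusted p of 0.0102 for *Ugt1a7c* in batch 1 and 0.0978 in batch 2, and the time at which it was highest differed between the batches, a difference that was not tested.

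*Ugt1a2* was 3.02, 3.05, 2.30, 2.85 and 2.15 CPM at 6 weeks in batch 1 and 3.53, 5.22, 3.95, 5.94 and 3.22 CPM at 5 weeks before onset. These groups did not overlap. In batch 2 it was 2.99, 4.16, 3.52, 3.20 and 3.47 CPM at 6 weeks and 4.55, 4.44, 4.33, 5.47 and 4.84 CPM at 5 weeks before onset, again without overlap. The share of all genes without overlap between these times was not counted, so the separation is a description only. At 7 weeks, 3 weeks and onset, and at 1 week in batch 1, the lowest value did not exceed the highest of 6 weeks: in batch 1 the lowest value was 2.00 CPM at 3 weeks, 3.02 at 1 week and 2.996 at onset, and in batch 2 it was 4.06 CPM at 7 weeks, 3.47 at 3 weeks and 4.13 at onset. At 1 week before onset in batch 2 the lowest value was 4.698 CPM, above all 6-week values. The mean of the later samples exceeded the 6-week sample in all 5 mice of each batch, by a median ratio of 1.498 and 1.495. For *Ugt1a6a* the same held in 1 of 5 mice of batch 1 and 3 of 5 of batch 2. Within single batches the adjusted p of *Ugt1a2* over the times was 0.180 in batch 1 and 0.0272 in batch 2.

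**Figure D4:**
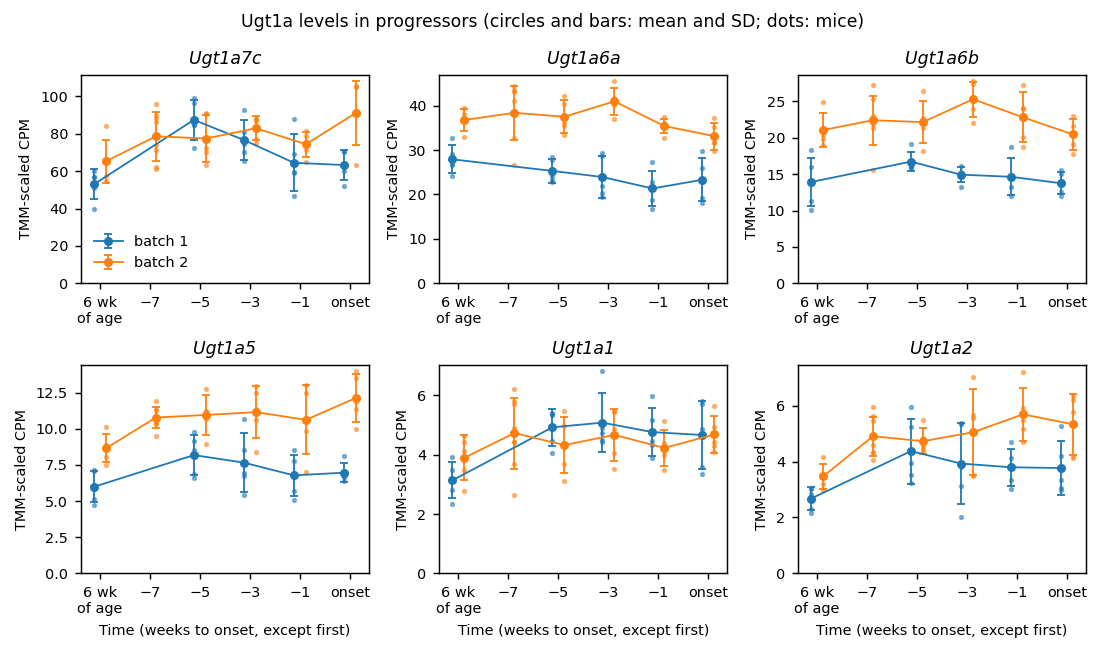
Level of 6 *Ugt1a* genes (TMM-scaled CPM, linear axis from 0) in progressors at 6 weeks of age, at 7, 5, 3 and 1 weeks before onset and at onset, in batch 1 (blue) and batch 2 (orange); dots are mice, circles and bars the mean and SD (n = 5 per time and batch, and 8 at 7 weeks). *Ugt1a2* lies lowest at 6 weeks in both batches (means 2.67 and 3.47 CPM), and *Ugt1a6a* and *Ugt1a6b* have higher means in batch 2 than in batch 1 at each time sampled in both.

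Other cells and pathways moved over the same times. All 4 fibroblast markers fell in progressors after 6 weeks (*Col1a1* by 1.23 ± 0.14 on the log2 scale), with a summed level of 33716 to 62757 CPM at 6 weeks and 7064 to 33485 CPM later in batch 1. Over the times, 5 of 5 hair follicle and 3 of 5 epidermis markers tested were called. The hair follicle sum was at most 70.7 CPM at 6 weeks in batch 1 and 1.89 in batch 2, and reached 4906 and 5630 CPM later, with medians of 5.14 and 1.35 CPM. Of 5 macrophage markers 1 was called over the times, and 0 in the mean of later times by edgeR (1 at an unadjusted p under 0.05), with a summed level of 3822 to 5520 CPM at 6 weeks and 3246 to 7982 CPM later in batch 1. The part of these values in the *Ugt1a* result was not tested. Of 10 tested targets of the aryl hydrocarbon receptor and NRF2, 6 rose, among them the cystine transporter *Slc7a11* (0.92 ± 0.12, adjusted p = 3.94e-08) and *Gclm* (0.30 ± 0.07, adjusted p = 0.0013) and *Gclc* (0.24 ± 0.06, adjusted p = 0.00296), which encode both subunits of the enzyme that starts glutathione synthesis. The median of these 10 genes was 0.26 beside 0.01 over all genes. Of 5 genes of UDP-glucuronic acid supply, *Ugdh*, which makes UDP-glucuronic acid, fell (by 0.60 ± 0.11, adjusted p = 2.69e-05), and *Gusb*, which encodes beta-glucuronidase and removes glucuronic acid again, rose (0.26 ± 0.09, adjusted p = 0.0145). Of 8 genes of heme and bilirubin handling 3 rose, the exporter *Abcc3* (0.47 ± 0.07, adjusted p = 1.39e-06) and the biliverdin reductase genes *Blvra* (0.30 ± 0.08, adjusted p = 0.00228) and *Blvrb* (0.34 ± 0.12, adjusted p = 0.0269). Of 10 regulators tested, *Arnt*, the partner of the aryl hydrocarbon receptor, fell (by 0.25 ± 0.04, adjusted p = 3.37e-07) and so did *Keap1*, the inhibitor of NRF2 (by 0.17 ± 0.05, adjusted p = 0.00282).

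*Ugt1a8* and *Ugt1a9* were almost absent at 6 weeks and detectable later in batch 2, a pattern noticed after the values were seen. Their summed level in the 12 batch 2 samples of 6 weeks was 0, 0.0332 and 0.166 CPM (lowest, median, highest). It was 0.154, 1.31 and 3.83 CPM in the 6 nonprogressor samples of 14 weeks and 0.0764, 0.553 and 4.05 CPM in the 23 progressor samples from 7 to 1 weeks before onset. At onset it was 0, 0.246 and 0.619 CPM in 5 samples. The log2 difference of *Ugt1a9* in progressors was 2.21 ± 0.76 (SE) for the mean of later times against 6 weeks. In nonprogressors at 14 weeks against 6 weeks it was 3.49 ± 0.96 for *Ugt1a8* and 2.61 ± 0.91 for *Ugt1a9*. Neither gene passed the count filter among the 6-week samples alone, and both entered these fits through later samples. These differences are therefore a description without a test. In batch 1 the pair was 0, 0.380 and 0.462 CPM in the 9 NOD samples of 6 weeks and 0, 0.249 and 0.980 CPM in the 36 later NOD samples with a mouse number, so the groups overlapped there. The largest count of the pair in any batch 2 sample was 162. Over the 46 batch 2 samples the pair ranked with the summed adipocyte markers (Spearman rho = 0.86) and mammary epithelium markers (0.75), which share the libraries and the ages with it. The adipocyte sum in progressors of batch 2 was 1.03 to 5.71 CPM at 6 weeks and 5.91 to 512 CPM later, but in batch 1 it was 4.14 to 205 CPM (median 181) at 6 weeks and 1.12 to 287 CPM (median 22.9) later. Of 4 adipocyte markers 0 were called in progressors by edgeR, over the times or in the mean of later times, with 0 at an unadjusted p under 0.05. Of 4 mammary markers 3 rose in progressors (*Csn3* by 3.23 ± 1.20, adjusted p = 0.0304), and their sum was 0.331 to 1.85 CPM at 6 weeks and 0 to 237 CPM later in batch 2, and 0.0634 to 26.4 CPM and 0.0964 to 108 CPM in batch 1. The part of these cells in the level of *Ugt1a8* and *Ugt1a9* was not tested.

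**Figure D5:**
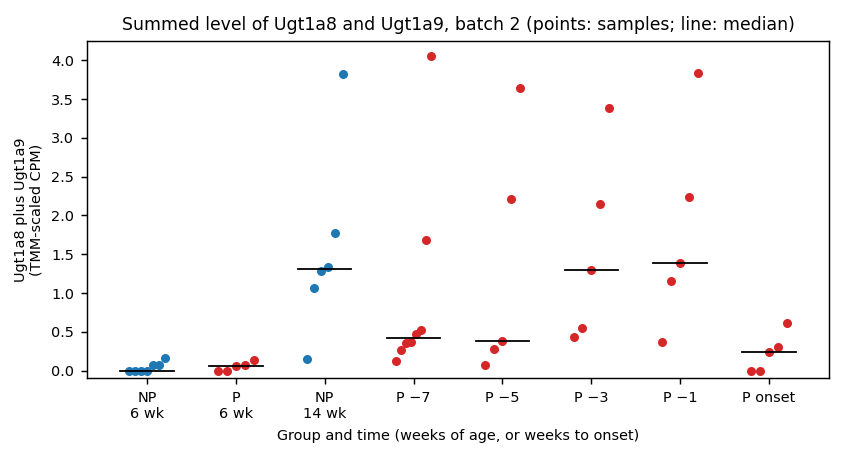
Summed level of *Ugt1a8* and *Ugt1a9* (TMM-scaled CPM, linear axis) in each batch 2 sample of nonprogressors (NP, blue) and progressors (P, red), with the group median as a line. The 12 samples taken at 6 weeks lie at or below 0.166 CPM, and single later samples reach 4.05 CPM.

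Progressors and nonprogressors were compared at 6 weeks of age, 10 against 11 mice with batch as a term, to see whether eventual progression was visible before hyperglycemia. Of 19082 genes 0% were called by edgeR at an adjusted p of 0.05. Of the 6 members tested 0 were called, 1 had an unadjusted p under 0.05, and 0 were called by DESeq2. This member, *Ugt1a2*, was at 2.67 ± 0.418 and 3.47 ± 0.442 CPM (SD) in progressors of batch 1 and 2 and at 3.02 ± 0.625 and 4.58 ± 1.11 CPM in nonprogressors (difference −0.31 ± 0.12 in log2, adjusted p = 0.891, range 0.760 to 1.00 over the alternatives). For *Ugt1a7c* the difference was −0.03 ± 0.10 and for *Ugt1a6a* 0.07 ± 0.07. Whether the later change in progressors differs from that in nonprogressors was not tested, because their times are counted from different points.

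The same kind of sample also differed between the batches, which bears on every level given for 1 batch. The nonprogressors of batch 1 and batch 2 are different mice, and the paper describes 2 cohorts of mice. Sequencing run, cohort and mice therefore cannot be told apart in this comparison. Over nonprogressors of 6 and 14 weeks, 47.7% of 21050 genes were called (23.9% higher and 23.8% lower in batch 2), and 5 of 8 members tested were higher in batch 2. *Ugt1a6a* was higher by 0.75 ± 0.09 (log2), *Ugt1a6b* by 0.74 ± 0.10, *Ugt1a2* by 0.64 ± 0.15, *Ugt1a5* by 0.59 ± 0.12 and *Ugt1a7c* by 0.27 ± 0.11, while *Ugt1a1* differed by 0.05 ± 0.15. Since all NOR samples are in batch 1, the batch 2 levels were not set against NOR.

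Among the 46 batch 2 samples, from 16 NOD mice, the members did not all rank alike. *Ugt1a2* and *Ugt1a5* had the highest Spearman rho among the 6 (0.67), *Ugt1a6a* and *Ugt1a6b* had 0.46, and *Ugt1a7c* had −0.06 with *Ugt1a6a* and 0.12 with *Ugt1a6b*. Of 15900 genes outside the locus with a mean of at least 1 CPM, those most like *Ugt1a7c* were *Dusp3* (0.92), *Ctsb* (0.90), *Gpnmb* (0.89), *P2rx4* (0.88) and *Rab7b* (0.88). Those most like the sum of the 9 genes were *Creg1* (0.86), *Pianp* (0.84), *P2rx4* (0.84), *Kif1a* (0.84) and *Lipa* (0.83). *Ctsb* encodes the lysosomal protease cathepsin B, *Lipa* the lysosomal acid lipase and *Gpnmb* a transmembrane glycoprotein of lipid-laden macrophages. The summed macrophage markers had a rho of 0.68 with *Ugt1a7c* and −0.13 with *Ugt1a6a*. These values describe samples that share libraries, mice and times.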

How the data were processed

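INs were explanted, and the authors sequenced total RNA after ribosomal depletion in 2 batches on different NovaSeq instruments and deposited expected counts per gene, as whole numbers without normalization; per the labels, cutadapt, STAR, RSEM, FastQC, MultiQC and GRCm38 were used. Reads of both strains thus met 1 reference genome, and RSEM divides reads shared by isoforms of the locus, which can shift counts between members.

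The members and lists were chosen with earlier results of these data known. All 9 members were named, with list genes past the threshold (at most 4 per list), the 4 neighbours that differed most, and the 5 genes of most similar rank. Counts were filtered (filterByExpr), TMM-scaled and tested over all genes with edgeR 4.0.16 in R 4.3.3 (two-sided quasi-likelihood F-test; p-values adjusted by Benjamini-Hochberg, threshold 0.05), with DESeq2 1.42.0 as the alternative. Strains were compared over mice, within batch 1. Samples of a mouse, as numbered in the labels, were the pairing; deviations of samples of 1 mouse correlated by 0.0142, 0.0064 and −0.0020 on average in NOR, nonprogressors and progressors over 2000 genes. The p-values measure the spread between INs, several of which came from 1 mouse. All 239 replicate pairs differed by more than counting noise, by a chi-square of at least 11.0 for each degree of freedom. The edgeR fits were tested on simulated data. Exon sequences are from GENCODE M21; the sequence of the shared exons is not reported here. Figures used matplotlib 3.10.9 and correlations scipy 1.17.1.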

Additional observations from a re-analysis of the deposited data

Results flagged for a closer look

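Within groups of 4 to 10 samples of 1 batch, 161 sets of values of the 6 abundant members and of the sum were checked for a sample far from the rest, of which 9 were marked; chance marks about 1 in 20. In nonprogressors of 6 weeks, mouse 5 of batch 2 was high in *Ugt1a2* (6.97 CPM, the others 3.501 to 4.56) and in *Ugt1a7c* (88.5 CPM, the others 56.4 to 68.8), and mouse 4 of batch 1 was low in the sum of the 9 genes (82.4 CPM, the others 112 to 114). In nonprogressors of 18 weeks, mouse 4 was low in *Ugt1a1* (3.33 CPM, the others 4.42 to 4.61) and mouse 3 was high in *Ugt1a6a* (26.4 CPM, the others 20.7 to 21.3). That library of mouse 3 had the lowest total of all samples, 4722396 counts, with 600 on the 9 genes. Among progressors of batch 1, mouse 3 was high in *Ugt1a1* at 3 weeks before onset (6.81 CPM, the others 4.44 to 4.91), mouse 2 in *Ugt1a6b* at 5 weeks before onset (19.1 CPM, the others 15.9 to 16.5) and mouse 5 in *Ugt1a5* at onset (8.13 CPM, the others 6.39 to 6.89). NOR mouse 4 was high in *Ugt1a2* at 6 weeks (1.75 CPM, the others 1.06 to 1.15).

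The 6 nonprogressor samples labelled only by days after implantation (31, 38 and 108 days) entered no comparison. The lowest of them had 97.0 CPM for the sum of the 9 genes and the highest 135 CPM, above the highest NOR sample (80.2 CPM).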

How the results depend on the processing

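The strain difference, taken as the median of the 6 abundant members, was 1.49 on the log2 scale, ranged from 1.43 to 1.53 when 1 mouse was left out, and moved to 1.22 in 6-week samples only and to 0.93 for the 9 members summed. Members called over ages in nonprogressors numbered 3, and 1 in batch 1 only, 0 in batch 2 only and 0 in batch 1 without 22 weeks; 2 to 3 were called when 1 mouse was left out. Members called over times in progressors numbered 4, and 2 without a filter on low counts, 2 in batch 1 only and 0 without the 6-week samples. DESeq2 called 1 member for strain by age, where edgeR called 0. With the mouse as replicate block, 0 members were called over ages in NOR, 2 in nonprogressors, 4 in progressors and 0 for strain by age, and of the called members the block changed only that of *Ugt1a8*. Without a filter, *Ugt1a1* (adjusted p = 0.0775) and *Ugt1a5* (0.0518) were no longer called in progressors. In progressors against nonprogressors at 6 weeks the sign turned for *Ugt1a6a* (−0.027 in batch 2 only, −0.016 without a batch term) and *Ugt1a6b* (−0.044 without a batch term), and for the batch difference of *Ugt1a1* (−0.024 to 0.161 when 1 mouse was left out) and *Ugt1a9* (−0.939 with DESeq2, −0.248 to 0.473 when 1 mouse was left out, below 0 also at −0.203 without nonprogressor 3). The batch call of *Ugt1a7c* was lost without nonprogressor 2, 3 or 4 (adjusted p from 0.0567 to 0.151). The alternatives of fewer ages or batches hold fewer samples. The cause of the other changes was not tested. *Ugt1a8*, *Ugt1a9* and *Ugt1a10* are limited by depth, with at most 95, 94 and 23 counts in a sample.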
